A study of Mus musculus with 27 samples.

Results

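The insulin-like growth factor (IGF) binding proteins were followed through 11 probe sets of 6 genes, Igfbp2 to Igfbp7, among the 45101 probe sets of an Affymetrix Mouse Genome 430 2.0 expression array. A probe set is a group of short probes that together report 1 transcript or a few related ones. The 11 were chosen by gene family name, in a choice made with results of these arrays in view, and 1 of the Igfbp5 probe sets (1452114_s_at) had already been picked out for its higher signal under the drug. The Igfbp5 differences between drug and vehicle and between resistant and other tumours are therefore given as a description, without a test. For the other members the measurements behind the choice are not recorded, so their p-values are not independent support either. All 11 probe sets passed the filter on low signal, which left 32842 probe sets for the fit.

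Every expression sample was a medulloblastoma of Ptch+/-p53-/- genotype, grown from tumour cells placed under the skin of the right flank of nu/nu (nude) mice and read on an array of its own. Sensitive tumours came from mice given vehicle and taken at 4 h (n = 3), 16 h (n = 3) or 48 h (n = 2), or from mice given NVP-LDE225, a Smoothened antagonist called LDE225 here, at 20 mg/kg/day once a day and taken at 4 h (n = 3), 16 h (n = 3) or 48 h (n = 2). Resistant tumours came from mice kept on LDE225 in 2 doses a day until day 26, of which 2 received 20 mg/kg/day in total and 3 received 160 mg/kg/day. The vehicle RNA arrays end at 48 h, so resistance, length of treatment and dosing schedule cannot be told apart in any comparison with the resistant tumours. DNA of 3 vehicle tumours and 3 resistant tumours (40, 80 and 160 mg/kg/day, 1 tumour each, all taken at 26 days) was hybridised on Agilent genomic arrays against 1 shared wild-type liver sample. The grafts grew outside the brain and both graft and host are mouse, so the arrays do not separate tumour RNA from host RNA. How many donor tumours supplied the cells is not stated in the labels, and the p-values measure the spread between grafts.

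IGF binding proteins are secreted proteins that hold Igf1 and Igf2 outside the cell and govern how much of either ligand reaches the receptor Igf1r, which signals through insulin receptor substrates and phosphoinositide 3-kinase. Most can restrain the ligands, and some also prolong their life or carry them to the cell surface or matrix. IGF signalling is known to act together with Hedgehog signalling in the growth of cerebellar granule neuron precursors and of the medulloblastomas that arise from them. Smoothened is the membrane protein that turns the Hedgehog pathway on.

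The promoters of the members that stood apart under the drug, Igfbp5, and of the members that varied together between tumours, Igfbp4, Igfbp6 and Igfbp7, are printed to show what sequence lies at their starts. They run from 250 bases before to 50 bases after the RefSeq start on GRCm38.p6, 5′ to 3′ on the gene's strand, and capitals mark the motifs searched. Igfbp5 lies at chr1:72874816-72875115 (minus strand), Igfbp4 at chr11:99040994-99041293 (plus strand), Igfbp6 at chr15:102143936-102144235 (plus strand) and Igfbp7 at chr5:77407996-77408295 (minus strand).
Igfbp5: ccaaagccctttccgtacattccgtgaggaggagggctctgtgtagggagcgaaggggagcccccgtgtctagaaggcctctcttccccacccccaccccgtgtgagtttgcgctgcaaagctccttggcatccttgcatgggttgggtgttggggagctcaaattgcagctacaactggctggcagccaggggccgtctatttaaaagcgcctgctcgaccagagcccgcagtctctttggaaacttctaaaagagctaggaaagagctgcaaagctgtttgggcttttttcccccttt
Igfbp4: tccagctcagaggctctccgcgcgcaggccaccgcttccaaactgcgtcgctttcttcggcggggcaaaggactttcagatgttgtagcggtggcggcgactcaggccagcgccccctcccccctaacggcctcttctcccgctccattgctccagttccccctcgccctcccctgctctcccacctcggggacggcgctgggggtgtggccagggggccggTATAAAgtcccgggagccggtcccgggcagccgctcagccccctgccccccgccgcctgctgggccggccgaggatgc
Igfbp6: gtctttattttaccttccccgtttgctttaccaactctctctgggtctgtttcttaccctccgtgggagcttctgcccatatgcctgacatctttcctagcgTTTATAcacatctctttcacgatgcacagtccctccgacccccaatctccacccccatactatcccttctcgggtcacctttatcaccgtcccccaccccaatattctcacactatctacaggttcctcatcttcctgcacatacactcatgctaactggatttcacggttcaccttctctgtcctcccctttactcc
Igfbp7: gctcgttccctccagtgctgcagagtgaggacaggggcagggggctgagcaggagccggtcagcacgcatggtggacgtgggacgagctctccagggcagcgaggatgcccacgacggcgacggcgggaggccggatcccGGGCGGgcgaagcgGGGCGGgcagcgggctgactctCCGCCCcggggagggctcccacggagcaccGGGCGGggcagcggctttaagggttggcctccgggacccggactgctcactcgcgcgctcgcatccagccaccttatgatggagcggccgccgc
The GLI motif GACCACCCA, the core sequence bound by the transcription factors at the end of the Hedgehog pathway, was searched on both strands and was found in 0 of the 7 windows of the 6 genes (Igfbp2 has 2 windows), against 0.253% of all 32851 windows. The TATA box TATAAA was present in the Igfbp4 window, 28 bases before the start, and on the opposite strand of the Igfbp6 window, 148 bases before the start, and in 13.6% of all windows. The GC box GGGCGG occurred 4 times in the Igfbp7 window and 3 times in 1 Igfbp2 window, against at least 1 match in 35.7% of all windows. The E-box CACGTG was found only in that Igfbp2 window among the 7 (7.15% of all windows), and the forkhead motif TGTTTAC in none of the 7 (3.65% of all windows). The windows of Igfbp7, Igfbp3 and Igfbp4 held 73.3%, 71.7% and 71.3% G or C, that of Igfbp5 held 56.3% and that of Igfbp6 held 49.7%, against a median of 52.7% over all windows. A match describes the letters in the window and nothing about binding.

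Signals are MAS5 values on a linear scale. They are not comparable between probe sets, because each probe set has its own brightness, so every comparison is of 1 probe set between tumours. Differences are on the log2(signal + 4) scale with their standard error (SE), and each p-value is 2-sided, from limma, adjusted by Benjamini-Hochberg over all 32842 probe sets. Groups said not to overlap are a description only. With 2 or 3 tumours a group this arises easily, and the share of all probe sets that did so was not counted for the RNA comparisons. Without the Igfbp5 pair, 9 members were tested in the comparisons of drug and resistance. At the adjusted threshold of 0.05, 0 of the 9 passed at 4 h of LDE225 against vehicle, where 0.104% of all probe sets passed. At that time 1 of the 9 (Igfbp2) had an unadjusted p below 0.05. The share of all probe sets with an unadjusted p below 0.05 was not counted in any comparison, so unadjusted counts are a description only. At 16 h, 1 of 9 passed (Igfbp7, higher), with 14.4% of all probe sets. At 48 h, 2 of 9 passed (both Igfbp3 probe sets, lower), with 22.7% of all. In resistant tumours against all vehicle tumours, 1 of 9 passed (Igfbp2, higher), with 10.8% of all. In resistant tumours against sensitive tumours under LDE225 at 16 h and 48 h, 5 of 9 passed (Igfbp2 and the Igfbp3 pair higher, 1 Igfbp4 probe set and Igfbp7 lower), with 26.7% of all. The comparisons share tumours: the vehicle arrays of the 3 drug comparisons serve again for the resistant tumours, and the resistant arrays enter both of the last comparisons. The median difference over the 11 members was 1.22 at 16 h and 1.62 at 48 h, against 0.09 at both times over all tested probe sets, and nothing particular to the family is read from these counts or medians.

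**Figure D1:**
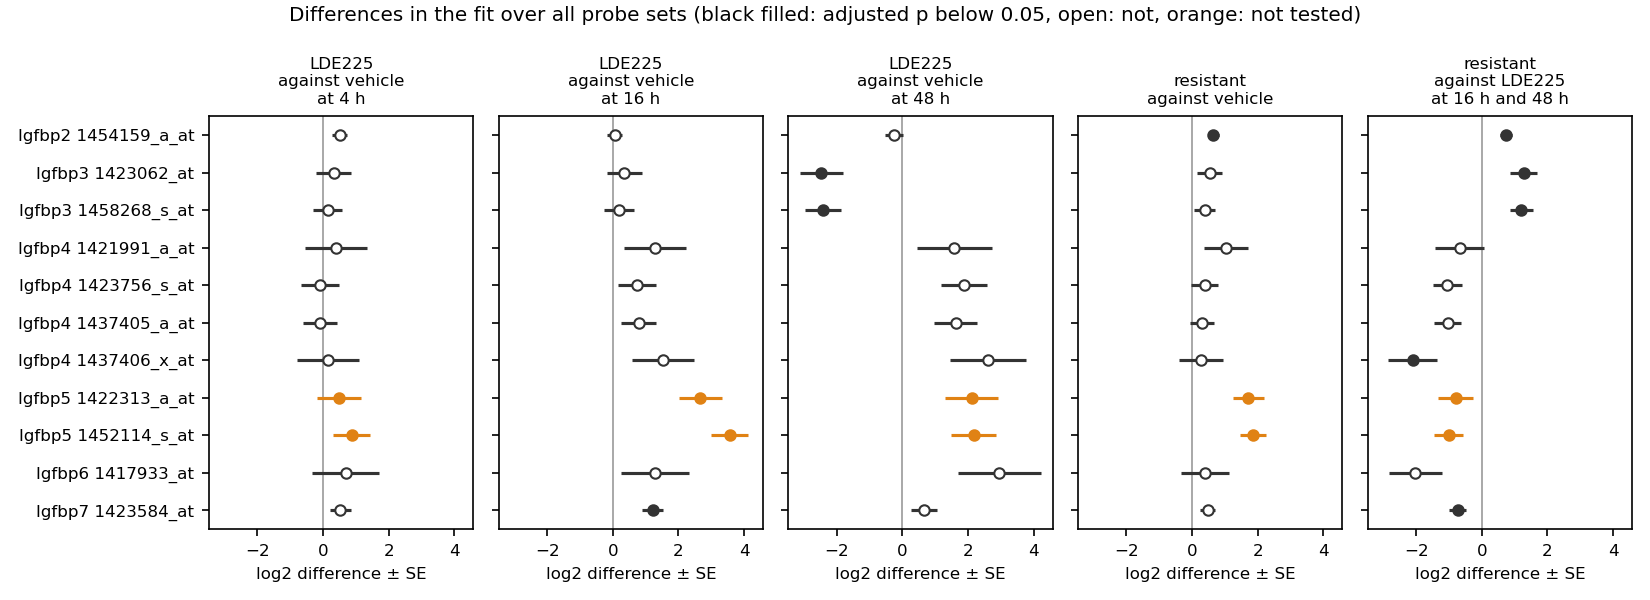
Differences on the log2(signal + 4) scale with their SE for the 11 IGF binding protein probe sets in 5 comparisons, 1 panel each. Points right of 0 are higher in the group named first, black filled points have a limma adjusted p below 0.05, open points do not, and the Igfbp5 points (orange) were not tested. At 48 h the Igfbp3 pair lies near -2.4 while all Igfbp4, Igfbp5 and Igfbp6 points lie to the right of 0.

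Igfbp5, which binds to the extracellular matrix as well as to IGFs, was the member most set apart by the drug at 16 h. Its brighter probe set 1452114_s_at read 146.7, 158.9 and 166.1 in the vehicle tumours at 16 h and 1710.9, 2051 and 1918.7 in the LDE225 tumours, a difference of 3.56 ± 0.56 (SE), or 11.8-fold. At 4 h the vehicle tumours read 200.3, 182.8 and 202.6 and the treated tumours 417.5, 318.8 and 346.3. At 48 h the vehicle tumours read 248.8 and 214.5 and the treated tumours 1035.4 and 1075.6. In this probe set every treated tumour was above every vehicle tumour at each of the 3 times, and the treated groups were highest at 16 h. The difference was 0.87 ± 0.56 at 4 h and 2.17 ± 0.68 at 48 h. In these bulk samples a change in the number of cells that make a transcript and a change in RNA per cell cannot be told apart.

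Resistant tumours did not share 1 Igfbp5 level. The 1452114_s_at signal was 382.2 and 1957.3 in the resistant tumours on 20 mg/kg/day and 854.5, 1392.7 and 147.5 in those on 160 mg/kg/day. Resistant tumour 3 on 160 mg/kg/day thus read as low as the vehicle tumours at 16 h, while resistant tumour 2 on 20 mg/kg/day read as high as the LDE225 tumours at 16 h. The mean difference from vehicle was 1.84 ± 0.40, and without that high tumour it was 1.25. This SE rests on 1 spread shared by all groups. The resistant tumours varied more (147.5 to 1957.3) than the vehicle tumours (146.7 to 248.8). The second probe set, 1422313_a_at, was dimmer. At 4 h its groups overlapped, with 23.1, 20.7 and 21.1 under vehicle and 19.8, 38.1 and 42.3 under LDE225. At 16 h it read 22.4, 32.7 and 17.9 under vehicle and 199.4, 152.4 and 167.2 under LDE225, and at 48 h 22.9 and 48.6 against 149.3 and 169.2, so at these times the groups did not overlap. In the resistant tumours it read 37.7 and 354.8 (20 mg/kg/day) and 93.2, 213.7 and 18.2 (160 mg/kg/day), so the same tumours were high and low in both probe sets. The doses of resistant tumours were compared by a test, though whether the choice of Igfbp5 used that difference is not recorded. Between them 1452114_s_at differed by -0.62 ± 0.62 (160 minus 20 mg/kg/day, limma adjusted p = 0.715). The sign turned to 0.55 without resistant 20 mg/kg/day tumour 2 and to 0.33 without resistant 160 mg/kg/day tumour 3. No member passed in that comparison (0 of 11, and 0 with an unadjusted p below 0.05), where 0.773% of all probe sets did.

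**Figure D2:**
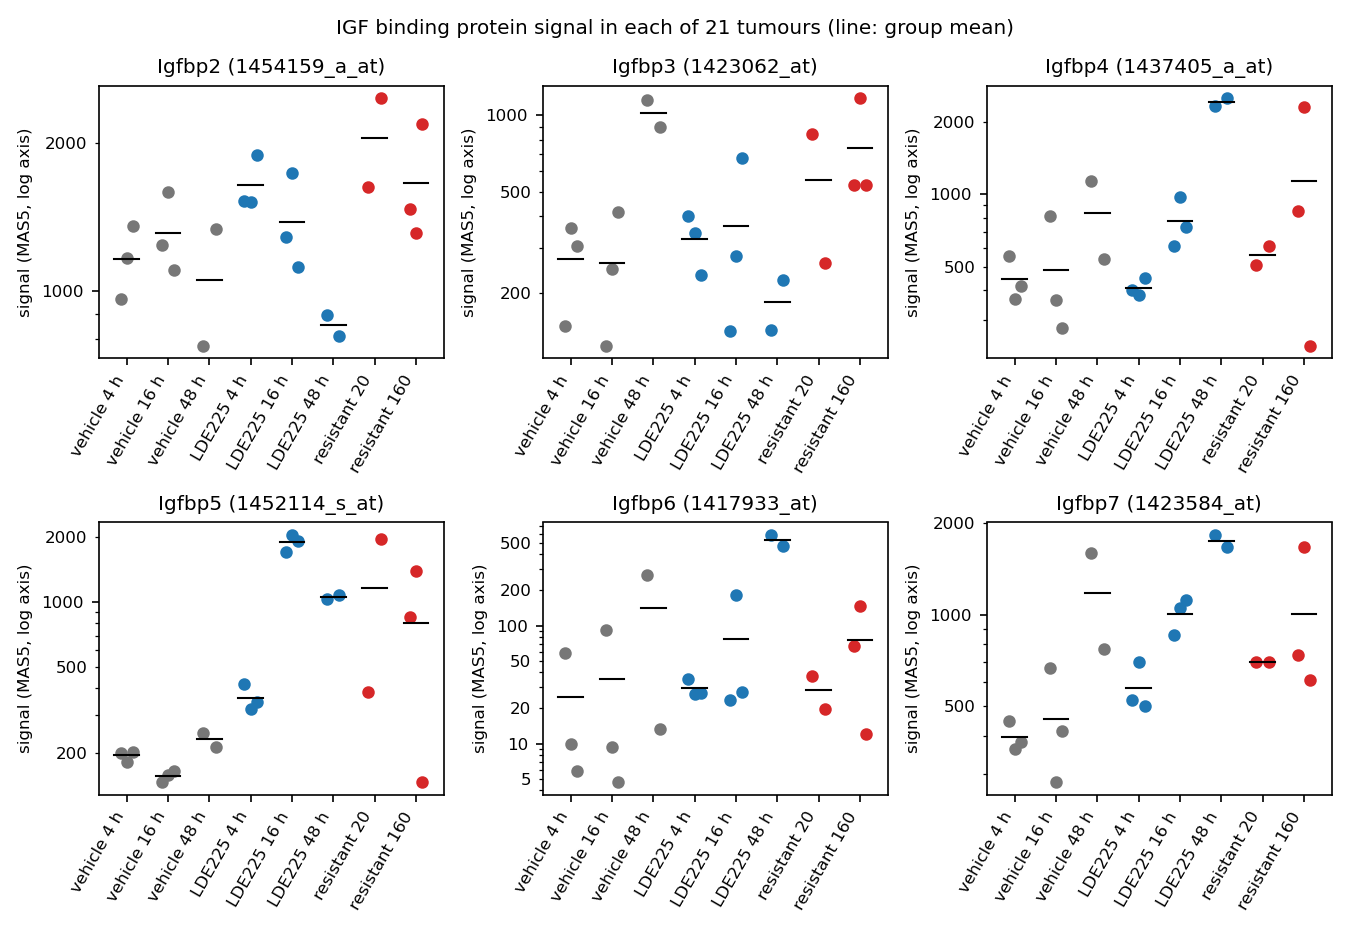
Signal (MAS5 units, log axis) of the brightest probe set of each gene in all 21 tumours by group, with 1 point per tumour and a line at the group mean. Igfbp5 separates treated from vehicle tumours at each time, the 48 h LDE225 tumours are the highest group for Igfbp4, Igfbp6 and Igfbp7, and the resistant tumours spread over most of the Igfbp5 range.

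Igfbp4, a mostly restraining binding protein that is cut by the protease Pappa, was brightest in the 48 h LDE225 tumours, but its difference from vehicle did not pass the test. Its brightest probe set 1437405_a_at read 1135.4 and 541.1 in the vehicle tumours at 48 h and 2335.4 and 2503.5 in the LDE225 tumours. The groups did not overlap. The difference was 1.62 ± 0.65, or 3.07-fold, with an adjusted p of 0.0786 from limma. At 16 h the vehicle tumours read 810.9, 364.9 and 279 and the treated tumours 608.4, 975.8 and 729.3, which overlap (0.79 ± 0.53, limma adjusted p = 0.368). At 4 h the vehicle tumours read 551.7, 367.5 and 415.5 and the treated tumours 398.8, 383 and 448.1, with a difference of -0.10 ± 0.53 (limma adjusted p = 0.997). The 8 group means of this probe set run from 410 (LDE225 at 4 h) to 2419 (LDE225 at 48 h), and of the 7 neighbouring pairs in that order only 2 do not overlap: resistant on 20 mg/kg/day below LDE225 at 16 h, and resistant on 160 mg/kg/day below LDE225 at 48 h.

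Igfbp4 in resistant tumours ranged over most of its span. The resistant tumours on 20 mg/kg/day read 508.6 and 607 for 1437405_a_at, and those on 160 mg/kg/day read 852.9, 2303.4 and 234.9. Tumour 2 on 160 mg/kg/day was at the level of the 48 h LDE225 tumours, and tumour 3 was below every vehicle tumour. Against vehicle the difference was 0.30 ± 0.38 (limma adjusted p = 0.662), and the sign turned to -0.26 with the 48 h vehicle tumours alone on the other side and to -0.09 without resistant tumour 2 on 160 mg/kg/day. Against LDE225 at 16 h and 48 h it was -1.04 ± 0.42 (limma adjusted p = 0.0723), and without resistant tumour 2 on 160 mg/kg/day this probe set passed. The 1437406_x_at probe set, of a kind that can share probes with other transcripts, did pass in that comparison (-2.11 ± 0.74, limma adjusted p = 0.0423), and its call ended without any 1 of 7 of the 10 arrays, all but LDE225 16 h tumour 1, resistant 20 mg/kg/day tumour 2 and resistant 160 mg/kg/day tumour 2 (adjusted p 0.0504 to 0.165). The 1423756_s_at and 1421991_a_at probe sets gave -1.05 ± 0.45 and -0.68 ± 0.74. The 1421991_a_at signal was under its array's 40th percentile, the level of the filter, on 7 of the 21 arrays.

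Igfbp6, which prefers Igf2 to Igf1, was dim in most tumours and bright in the 48 h LDE225 tumours. Its probe set 1417933_at read 266 and 13.3 in the vehicle tumours at 48 h and 586 and 471.2 in the treated tumours, a difference of 2.95 ± 1.26 (limma adjusted p = 0.1). The vehicle pair was itself far apart, with tumour 1 closer to the treated tumours than to vehicle tumour 3. Without vehicle 48 h tumour 1 the difference was 4.94, and without vehicle 48 h tumour 3 it was 0.97. Either fit leaves 1 vehicle tumour at 48 h, so only these differences are given. With an offset of 27 in place of 4 the difference was 2.35 and passed (limma adjusted p = 0.0435). At 16 h it read 91.2, 9.3 and 4.7 under vehicle and 23.6, 180.6 and 27.2 under LDE225. At 4 h it read 58.6, 10 and 5.8 under vehicle and 35, 26.2 and 26.6 under LDE225. The ranges overlap at both times, and tumour 1 was the highest vehicle tumour at 4 h, 16 h and 48 h. The resistant tumours read 37.2 and 19.7 (20 mg/kg/day) and 67.3, 145.5 and 12.1 (160 mg/kg/day), all below the 48 h LDE225 tumours. Against vehicle the difference was 0.41 ± 0.73 (limma adjusted p = 0.778), and -0.71 with the 48 h vehicle tumours alone on the other side. On 5 of the 21 arrays the signal was under the 40th percentile, which lay between 11.2 and 19.3.

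Igfbp7, a relative with low affinity for IGFs that is known from the walls of blood vessels, rose at 16 h of LDE225. Its probe set 1423584_at read 668.9, 281.7 and 415 in the vehicle tumours at 16 h and 857, 1052.6 and 1115.3 in the treated tumours. The groups did not overlap, and the difference was 1.22 ± 0.32, or 2.33-fold (limma adjusted p = 0.015). Without vehicle 16 h tumour 2 the difference was 0.92 (adjusted p = 0.0832) and without LDE225 16 h tumour 3 it was 1.14 (adjusted p = 0.0621), so either tumour ends the call. At 4 h it read 448.1, 363.6 and 382.5 under vehicle and 524.4, 700.4 and 501.3 under LDE225, with a difference of 0.52 ± 0.32 (limma adjusted p = 0.88). At 48 h it read 1593.6 and 773.3 under vehicle and 1830.6 and 1673.5 under LDE225 (0.66 ± 0.40, limma adjusted p = 0.255). The treated tumours were above the vehicle tumours at all 3 times, and the vehicle tumours at 48 h were above those at 4 h.

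In resistant tumours, Igfbp7 read 700.6 and 697.3 on 20 mg/kg/day and 737.1, 1665.7 and 609.5 on 160 mg/kg/day. Of these 5, 4 lay close together and tumour 2 on 160 mg/kg/day stood at the level of the 48 h LDE225 tumours. Against vehicle the difference was 0.47 ± 0.23 (limma adjusted p = 0.203), and the sign turned to -0.48 with the 48 h vehicle tumours alone on the other side. Against LDE225 at 16 h and 48 h Igfbp7 was lower, by -0.73 ± 0.26 (limma adjusted p = 0.0401), and that call ended without any 1 of 8 of the 10 arrays, all but LDE225 16 h tumour 1 and resistant 160 mg/kg/day tumour 2 (adjusted p 0.0699 to 0.111).

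Igfbp4, Igfbp6 and Igfbp7 varied together from tumour to tumour. Over the 21 arrays the Pearson correlation of log2(signal + 4) was 0.90 between Igfbp4 (1437405_a_at) and Igfbp6, 0.86 between Igfbp4 and Igfbp7 and 0.83 between Igfbp6 and Igfbp7. With each group's mean removed it was 0.80, 0.81 and 0.74, so the shared variation also lies between tumours of the same group. Among all other tested probe sets, Igfbp6 ranked 75 and Igfbp7 ranked 201 in likeness to this Igfbp4 probe set. Among the tested probe sets other than the 11 members, 64 had a correlation above 0.9 with Igfbp4, 113 with Igfbp6, 16 with Igfbp7 and 3 with Igfbp5, and 0 with Igfbp2 or Igfbp3. Igfbp3 did not follow Igfbp4 (-0.01). Igfbp2 had a negative correlation with Igfbp4 (-0.51) and ranked 29476 in likeness to it. Many of the 32842 probe sets in the fit were thus more negative than Igfbp2. Igfbp5 (1452114_s_at) gave 0.60 with Igfbp4, 0.45 with Igfbp6 and 0.64 with Igfbp7. With each group's mean removed these were 0.71, 0.32 and 0.42. The values come from the same arrays and are a description. Vehicle 48 h tumour 1 and resistant 160 mg/kg/day tumour 2 were the highest of their groups in all of Igfbp4, Igfbp6 and Igfbp7. Both were also the highest of their groups in Igfbp3 and in Igfbp5 1452114_s_at, so this is not particular to those members. The probe sets other than the members carry no gene names here, some may report the same genes, and markers of vessels, fibroblasts or other host cells were not analysed on the RNA arrays and their part in this shared variation was not tested.

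**Figure D3:**
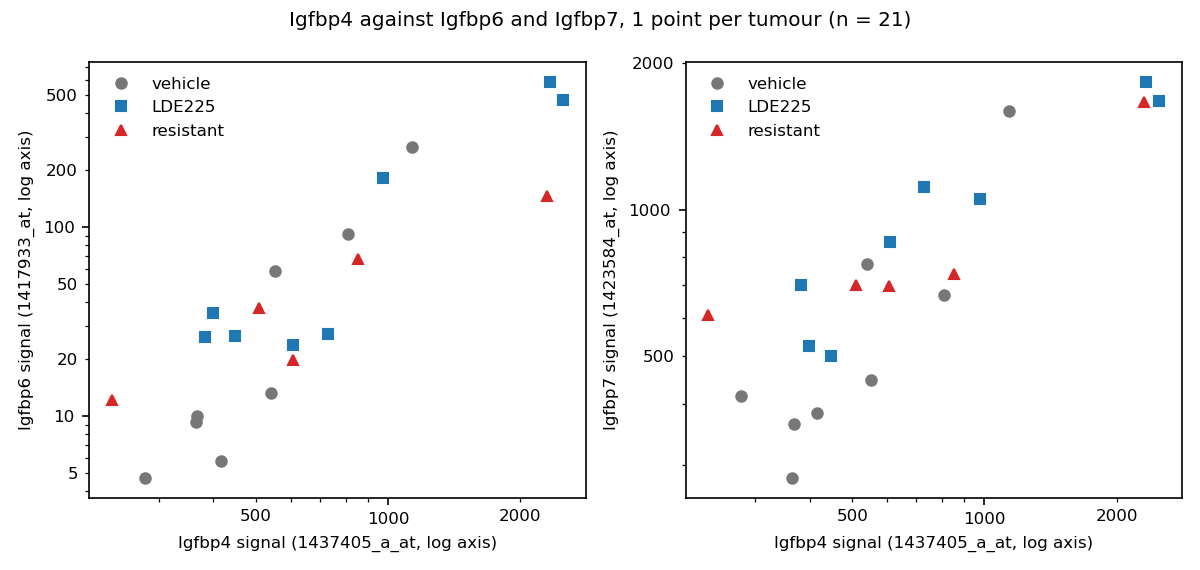
Signal of Igfbp4 (horizontal, log axis) against Igfbp6 (left) and Igfbp7 (right, log axes), 1 point per tumour in MAS5 units, with vehicle, LDE225 and resistant tumours in different symbols. The 48 h LDE225 tumours and resistant 160 mg/kg/day tumour 2 sit at the right end of both panels, at Igfbp4 signals of 2303.4 to 2503.5.

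Igfbp3 is the main carrier of IGFs in serum, together with the acid-labile subunit, and a known target of p53. At 48 h it was lower under LDE225 than under vehicle in both probe sets. Its brighter probe set 1423062_at read 1144.3 and 893.6 in the vehicle tumours at 48 h and 143.1 and 225.5 in the treated tumours, a difference of -2.47 ± 0.64, 5.53-fold (limma adjusted p = 0.00935). The second, 1458268_s_at, read 900.9 and 679.8 under vehicle and 127.6 and 159.8 under LDE225 (-2.42 ± 0.55, limma adjusted p = 0.00346). The groups did not overlap in either. Leaving out any 1 of the 4 arrays leaves 1 tumour in a group, so a pass in such a fit is not read as support. Without LDE225 48 h tumour 1 the 1423062_at difference was -2.15 and its call ended. The 1458268_s_at difference was -2.62 to -2.22 without each array in turn.

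At 4 h 1423062_at read 148.8, 358.7 and 306.1 under vehicle and 399.9, 342.9 and 234.6 under LDE225. At 16 h it read 124.3, 249.3 and 416.3 under vehicle and 142.6, 280.5 and 674.6 under LDE225. Vehicle and treated tumours overlap at both times (0.32 ± 0.53 and 0.35 ± 0.53, limma adjusted p = 0.983 and 0.732, with signs that turn when single tumours are left out), and the treated tumours at 48 h lie inside the range of the vehicle tumours at 4 h and 16 h. The vehicle tumours at 48 h were above all earlier vehicle tumours. Against vehicle at 4 h they differed by 1.98 ± 0.59 (limma adjusted p = 0.14), and 1458268_s_at by 1.95 ± 0.50 (limma adjusted p = 0.0801). In that comparison 0 of 11 members passed, with 0.746% of all probe sets. An unadjusted p below 0.05 was found for 3, the Igfbp3 pair and Igfbp7, and the share of all probe sets below it was not counted. The drug effect at 48 h minus that at 4 h was -2.79 ± 0.83 (limma adjusted p = 0.0331) and -2.56 ± 0.70 (limma adjusted p = 0.0223). These 2 were the only members of the 9 tested to pass there, with 12.8% of all probe sets. The 1423062_at call ended without any 1 of 7 of the 10 arrays (all but vehicle 4 h tumours 2 and 3 and LDE225 4 h tumour 3), and the 1458268_s_at call without vehicle 4 h tumour 1 or any of the 4 arrays at 48 h. The ratio of 3′ to 5′ actin signal, a sign of RNA length, was 1.25 to 1.40 on the 9 arrays of the 48 h and resistant tumours and 1.53 to 1.91 on the 12 of the 4 h and 16 h tumours. It separates the vehicle tumours at 48 h from those at 4 h, and its part in the result was not tested.

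Igfbp3 in resistant tumours was above its level in treated sensitive tumours. The 1423062_at signal was 843.3 and 262.8 on 20 mg/kg/day and 532.2, 1160.8 and 532.2 on 160 mg/kg/day. Against LDE225 at 16 h and 48 h the difference was 1.28 ± 0.42 (limma adjusted p = 0.0282), and for 1458268_s_at 1.21 ± 0.35 (limma adjusted p = 0.016), although single tumours overlap. Without resistant 20 mg/kg/day tumour 1 these were 0.86 (adjusted p = 0.189) and 0.89 (adjusted p = 0.116), and without LDE225 48 h tumour 1 they were 1.12 (adjusted p = 0.112) and 1.13 (adjusted p = 0.0624). The 1423062_at call also ended without LDE225 16 h tumour 1, LDE225 16 h tumour 2 or resistant 160 mg/kg/day tumour 2 (adjusted p = 0.0728, 0.051 and 0.0596). Against vehicle at all times the differences were 0.53 ± 0.37 and 0.39 ± 0.32 (limma adjusted p = 0.398 and 0.477), and the signs turned to -0.82 and -0.96 with the 48 h vehicle tumours alone on the other side.

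Igfbp2, an abundant binding protein of the developing brain, rose in the resistant tumours. Its probe set 1454159_a_at read 1629.1 and 2463.1 on 20 mg/kg/day and 1468.4, 1313.7 and 2187 on 160 mg/kg/day. The 8 vehicle tumours had a lowest, median and highest signal of 775.7, 1205.3 and 1593, and the sensitive LDE225 tumours at 16 h and 48 h read 1286.7, 1735, 1120, 896.6 and 811.6. The ranges overlap, and 3 resistant tumours were above all vehicle tumours. Against vehicle the difference was 0.64 ± 0.16, or 1.56-fold (limma adjusted p = 0.0165). It was 0.51 (adjusted p = 0.0546) without vehicle 48 h tumour 1, 0.49 (adjusted p = 0.152) without resistant 20 mg/kg/day tumour 2 and 0.49 (adjusted p = 0.104) with arrays centred on their medians. With the 48 h vehicle tumours alone on the other side it was 0.82 (adjusted p = 0.107), a fit in which 1.34% of all probe sets passed. The ratio of 3′ to 5′ actin signal was 1.27 to 1.40 on the 5 resistant arrays, 1.60 to 1.87 on the 6 vehicle arrays of 4 h and 16 h and 1.25 to 1.30 on the 2 of 48 h, so it moves with this comparison too, and its part in it was not tested. Against the LDE225 tumours the difference was 0.74 ± 0.18, or 1.67-fold (limma adjusted p = 0.00535). Over all 20 alternative fits it was 0.59 to 1.07. In those that kept at least 2 tumours in every group it passed, with limma adjusted p-values from 0.00205 to 0.0163.

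Under the drug alone Igfbp2 did not pass at any time. At 4 h it read 966.7, 1167.1 and 1354.3 under vehicle and 1522.2, 1521.4 and 1888.2 under LDE225, groups that did not overlap (0.50 ± 0.23, unadjusted p = 0.0414, limma adjusted p = 0.767). At 16 h the difference was 0.06 ± 0.23 (-0.08 with median centring and -0.11 without LDE225 16 h tumour 2) and at 48 h -0.25 ± 0.28 (0.14 without vehicle 48 h tumour 3), with limma adjusted p = 0.899 and 0.565. The resistant groups had the highest 2 of the 8 group means, 2046 on 20 mg/kg/day and 1656 on 160 mg/kg/day, and all neighbouring groups in the order of means overlapped.

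DNA copy number was measured on arrays other than the expression arrays. Whether DNA results were in view when the members were chosen is not recorded, so these p-values are not independent support either. Values are mean log2 ratios of tumour over liver DNA, on probe positions of the mm8 build. Of the 3 member genes with at least 3 probes, 0 passed between resistant and vehicle tumours (0 also at an unadjusted p below 0.05), where 2.04% of 13512 genes did. Igfbp5 (chr1:72794561-72807780, 4 probes) read 0.099, 0.180 and 0.103 under vehicle; the resistant tumours read 0.148 at 40 mg/kg/day, 0.194 at 80 mg/kg/day and 0.338 at 160 mg/kg/day, a difference of 0.099 ± 0.058 (limma adjusted p = 0.265). Its neighbour Igfbp2 (chr1:72761927-72784585, 4 probes) differed by 0.014 ± 0.032 (limma adjusted p = 0.77) and Igfbp7 (chr5:78429257-78481366, 9 probes) by 0.082 ± 0.045 (limma adjusted p = 0.24). The DNA tumours are not the RNA tumours, so no value here is the copy number of a tumour on the expression arrays. The title of the 160 mg/kg/day DNA tumour calls it vehicle treated, whereas its other labels call it resistant and treated, and it was grouped by those.

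Igfbp3 (chr11:7107282-7112009), Igfbp4 (chr11:98860248-98868709) and Igfbp6 (chr15:101973105-101976620) had 2 probes each and were read from all probes within 500 kb. Around Igfbp4 (167 probes) the vehicle tumours read 0.102, 0.063 and 0.102 and the resistant tumours -0.036, 0.001 and -0.030, a difference of -0.111 ± 0.018 (limma adjusted p = 0.0245). Around Igfbp6 (194 probes) the vehicle tumours read 0.064, 0.015 and 0.070 and the resistant tumours -0.074, -0.123 and -0.073 (-0.139 ± 0.023, limma adjusted p = 0.0246). The groups did not overlap at either locus, nor around Igfbp3 (55 probes), where all resistant tumours (-0.021, -0.042 and 0.031) were above all vehicle tumours (-0.060, -0.047 and -0.062) but the difference did not pass (0.046 ± 0.022, limma adjusted p = 0.217). Over all windows, 45.3% had groups that did not overlap. In this reading 2 of 6 members passed, against 15.5% of all 13516 windows, and windows of neighbouring genes share probes. Both calls ended without any 1 of the 3 vehicle arrays (adjusted p 0.0763 to 0.136) and with another background correction (-0.057, adjusted p = 0.438, and -0.044, adjusted p = 0.566). In those fits 1.06% to 1.07% and 0% of all windows passed. The windows of Igfbp2, Igfbp5 and Igfbp7 differed by 0.026, 0.016 and -0.029 and did not pass.

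**Figure D4:**
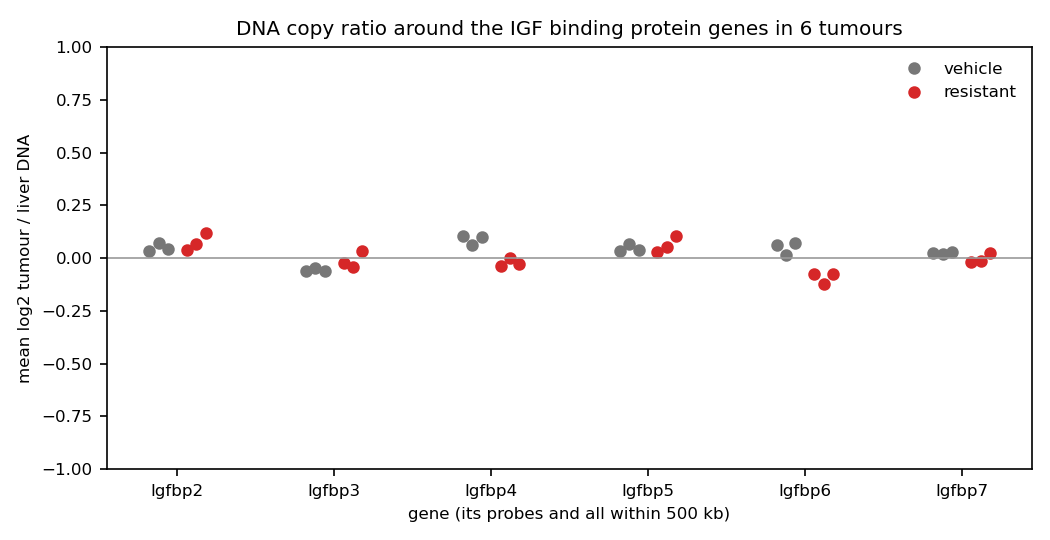
Mean log2 ratio of tumour over liver DNA over each IGF binding protein gene and 500 kb on either side, with 3 vehicle tumours and 3 resistant tumours (40, 80 and 160 mg/kg/day from left to right) per gene. All values lie between -0.123 and 0.121, and vehicle and resistant tumours do not overlap around Igfbp3, Igfbp4 and Igfbp6.

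The ligands, receptors and downstream members of the IGF pathway were read on the DNA arrays only. Of a list of 19 such genes, 15 had at least 3 probes and 0 passed in either direction (3 at an unadjusted p below 0.05). The median difference was -0.077 against -0.009 over all genes. The share of all genes with an unadjusted p below 0.05 was not counted, so the unadjusted counts of these lists are a description only. Igf2, a ligand, was lower in each resistant tumour (-0.278, -0.165 and -0.386, against a vehicle mean of 0.088), with a difference of -0.365 ± 0.069 over 3 probes (limma adjusted p = 0.0591). The ligand Igf1 differed by -0.140 ± 0.056 (limma adjusted p = 0.146), the receptor Igf1r by -0.046 ± 0.029 (limma adjusted p = 0.298) and Igf2r, which clears Igf2, by 0.012 ± 0.036 (limma adjusted p = 0.823). With Igf1 and Igf2, the third gene of the list below an unadjusted 0.05 was Pik3cb, a catalytic subunit of phosphoinositide 3-kinase named after its values were seen, which was higher by 0.232 ± 0.075 (limma adjusted p = 0.105). Of 17 proteases and regulators of the binding proteins, 9 were tested, and of 13 relatives of the family, 5 were tested. In these lists 0 passed, with 0 and 2 at an unadjusted p below 0.05.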

How the data were processed

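RNA of 21 tumours was read on Affymetrix arrays and DNA of 6 on Agilent arrays. The deposited expression values are linear MAS5 signal intensities, per the submitters' processing notes, with scaling target and detection calls not given in the sources used here. They were kept as deposited, raised by an offset of 4 and taken to log2. The 64 control probe sets were left out, and testing required a signal at or above the 40th percentile of the array in 2 or more tumours. One limma 3.58.1 model (R 4.3.3) with a mean-variance trend held the 8 groups, with 13 residual degrees of freedom, so the groups share 1 estimate of the spread. Where a fit left a group with 1 tumour, that tumour is assumed to vary like the others. The number of arrays limits the precision; array means were 221.4 to 256.4, and no pair of arrays correlated above 0.9812.

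For DNA, the deposited scanner intensities were background-subtracted and dye-normalised by Feature Extraction, per the file headers, with tumour in Cy5 and liver in Cy3, per the labels. The log2 ratio of the processed signals was centred on each array's autosomal median, averaged over probes named for a gene, and tested with limma. The authors' deposited log10 ratio table of the same arrays served as an alternative; its columns correlated at 0.9987 or more with log ratios of the scanner signals in the same direction.

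The members and the pathway lists were chosen with earlier results of these data known. Every member is named. Pathway genes are named if they passed or are Igf1, Igf2, Igf1r or Igf2r (Igfals had too few probes). Pik3cb is an exception, named after its values were seen although it did not pass. Likeness was taken for the brightest probe set of each gene. The pathway and cell type marker lists were not analysed on the RNA arrays, where only the members carried names. Promoters came from RefSeq (GRCm38.p6), and 6 of 6 genes matched. Alternatives were the offset (1 or 27), quantile normalization, median centring, no filter, no trend, a replicate block by mouse number, fitting only the groups compared, and leaving out each array. The limma steps were tested on simulated data.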

Additional observations from a re-analysis of the deposited data

Results flagged for a closer look

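The Igfbp7 signal of 1665.7 (1423584_at) in resistant tumour 2 on 160 mg/kg/day lay far from the other 4 resistant tumours, with a gap to the nearest of 0.811 of the group's range. It was the 1 value flagged among 33 pairs of a sample set and a probe set looked at for this. Chance passes the flagging threshold in about 1 of 20, so 1 flag among 33 is not unusual. The drug effect on Igfbp3 differed between 48 h and 4 h by an interaction test, by -2.79 (1423062_at) and -2.56 (1458268_s_at) on the log2 scale.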

How the results depend on the processing

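The count of members passing among the 9 tested moved by more than 1.5 times in the following fits, each given with the share of all probe sets that passed in it. Fitted on only the groups compared, it was 5 in place of 2 at 48 h (18.3%), 1 in place of 5 for resistant against LDE225 tumours (21.5%), 4 in place of 2 for the effect at 48 h minus 4 h (16%) and 1 in place of 0 of 11 for vehicle at 48 h against 4 h (0.104%). With an offset of 27 it was 4 at 48 h (24.9%). Without the trend it was 2 for resistant against LDE225 tumours (25.1%) and 1 for the effect at 48 h minus 4 h (10.6%). Median centring gave 0 in place of 1 for resistant against vehicle (12.5%). With 48 h arrays alone on the other side it was 0 for resistant against vehicle (1.34%) and 8 for resistant against LDE225 tumours (29.9%). On DNA the reading of all probes within 500 kb gave 2 of 6 (15.5% of all windows) in place of 0 of 3 (2.04% of all genes). Those 2, Igfbp4 and Igfbp6, had too few probes for the reading by gene and were not tested there. The cause was not tested. Leaving out 1 array at a time gave 0 to 0 members at 4 h, 0 to 1 at 16 h (8.67% to 12.5%), 1 to 3 at 48 h (8.71% to 21.1%), 0 to 2 for resistant against vehicle (4.02% to 13.4%), 1 to 7 for resistant against LDE225 tumours (19.7% to 27.5%) and 0 to 2 for the effect at 48 h minus 4 h (4.64% to 13.7%). In a group of 2, leaving out an array leaves 1 tumour, and counts from those fits rest on the spread of the other groups. An alternative chosen after seeing the data left out vehicle 48 h tumour 1 and resistant 160 mg/kg/day tumour 2. It kept 1 vehicle tumour at 48 h, so only differences are given. For resistant against vehicle the Igfbp2 difference was 0.59. For resistant against LDE225 tumours it was 0.81 for Igfbp2, 1.09 and 1.07 for the Igfbp3 pair, -2.69 for Igfbp4 1437406_x_at and -0.95 for Igfbp7.

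Over 11 member results that passed, 146 of 197 alternative fits still passed and 0 changed direction. These counts include the alternative chosen after seeing the data and the fits that left a group with 1 tumour. Among members that did not pass, signs turned in several fits, given beside the results or not read. Deviations from the group mean were correlated between same-numbered vehicle and LDE225 tumours (0.12, 0.04 and 0.15 at 4 h and -0.20, -0.20 and 0.18 at 16 h). With so few tumours a group and no comparison between times, these values cannot decide whether the mouse numbers pair the tumours. With mouse number as a replicate block the count was 2 at 48 h (19.6% of all probe sets) and 7 for resistant against LDE225 tumours (26.5%). It was 0 at 4 h (0.0792%), 1 at 16 h (13.9%) and 1 when resistant and vehicle tumours were compared (9.72%). Median centring shifts the median of all probe sets by -0.14 at 16 h, by -0.23 at 48 h and, between resistant and vehicle tumours, by -0.15, and quantile normalization by -0.18 at 48 h.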
